A study of Mus musculus with 12 samples.

Results

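Ctnnb1 siRNA was compared with control siRNA in mouse collecting duct cells that were kept in the vasopressin agonist dDAVP. The comparison takes 6 of the 12 libraries of the series, 3 with Ctnnb1 siRNA and 3 with control siRNA, assigned by their labels. It was chosen with earlier results of these data known. Of 25208 genes in the count table, 16508 had enough reads to be tested. All cells were mpkCCDc11, an immortalised mouse line with features of the principal cells of the cortical collecting duct. They were transfected with siRNA at 50 nM, grown on semipermeable supports for 4 days, starved of serum and hormones for 24 h, and then given dDAVP at 1 nM on the basolateral side for 24 h. Control-siRNA and Ctnnb1-siRNA cells that received vehicle in place of dDAVP make up the other 6 libraries. The labels name 1 siRNA reagent for Ctnnb1 and 1 for the control, so an effect of the reagent that does not run through Ctnnb1 cannot be told apart from an effect of Ctnnb1. They do not say whether replicates were separate cultures, so the p-values below measure only the spread between these libraries, which may be technical.

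Ctnnb1 encodes beta-catenin, which has a structural and a transcriptional role. At the adherens junction it links the tails of cadherins to alpha-catenin and the actin cytoskeleton. In the Wnt pathway it escapes the APC and axin destruction complex when Wnt binds Frizzled and LRP receptors, enters the nucleus and acts with TCF/LEF factors on target genes. Vasopressin acts on the same cells through the V2 receptor, Gs, adenylyl cyclase and protein kinase A, and raises transcription of Aqp2, the water channel of the apical membrane. The question of the series, by its title, is how beta-catenin bears on genes that respond to vasopressin.

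The 6 libraries held between 39230230 and 48762950 reads assigned to genes. Library Ctnnb1 siRNA dDAVP replicate 3 stood apart: the SD of its log2 differences from the other 2 of its group, across genes, was 0.317 and 0.327, against 0.216 to 0.306 for every other pair within a group. Its share of reads in mitochondrial ribosomal RNA was 1.52%, against 0.464% to 1.27% in the other 5 libraries of the comparison, and its share in small structural RNAs was 1.61%, against 1.68% to 3.08%. Markers of collecting duct epithelium, such as Krt8, Krt18, Cdh16 and Epcam, were present at a summed level of 6932 to 7177 CPM (read counts scaled to a common library size) with control siRNA and 7075 to 7877 CPM with Ctnnb1 siRNA. Principal cell markers summed to 335 to 371 CPM and 344 to 365 CPM. Intercalated cell markers summed to 191 to 204 CPM with control siRNA and 195 to 218 CPM with Ctnnb1 siRNA. Podocyte markers summed to 68.4 to 86.6 CPM and 59.1 to 66.3 CPM. Sums of proximal tubule and leukocyte markers are given below. Fibroblast and endothelial markers summed to at most 3.31 CPM in any of the 6 libraries.

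The targeted transcript was lower in every Ctnnb1-siRNA library. Ctnnb1 (chr9:120933400-120960507, GRCm38.p6) stood at 776, 811 and 786 CPM where dDAVP-treated cells had control siRNA and at 335, 342 and 326 CPM where they had Ctnnb1 siRNA. The 2 groups were far apart, and each was narrow: their means were 791 ± 18.2 and 334 ± 8.09 CPM (SD, n = 3 libraries each). The fitted change was -1.24 on the log2 scale (SE 0.0472, adjusted p = 7.64e-10 by edgeR's quasi-likelihood test with Benjamini-Hochberg adjustment over all tested genes), a 2.37-fold lower level. An exact two-sided permutation test of the 6 CPM values gave p = 0.1, the smallest that 3 libraries against 3 allow. Knockdown was therefore partial at the RNA level, and its size with vehicle was -1.26 (SE 0.0472). The difference between the 2 treatments in the size of the knockdown was 0.02 (adjusted p = 0.986 for the interaction, edgeR).

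**Figure D1:**
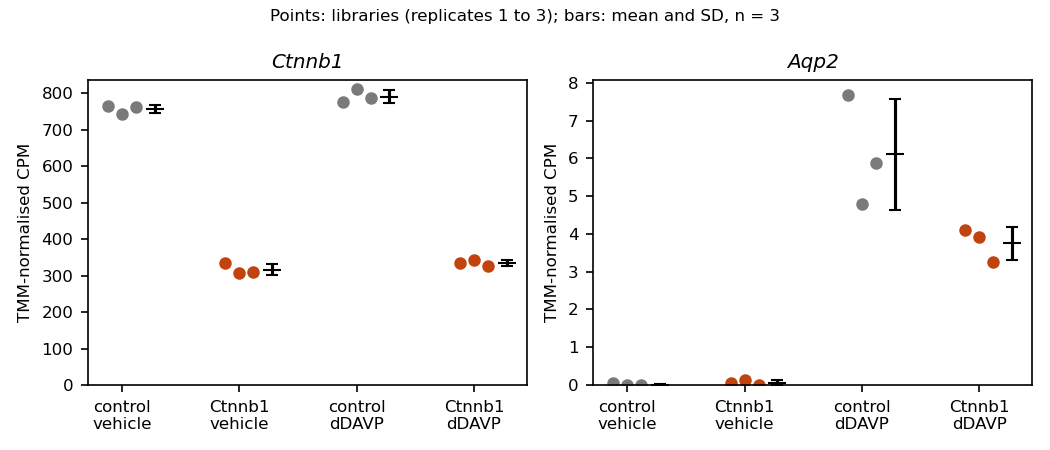
Level of Ctnnb1 (left) and Aqp2 (right) in TMM-normalised CPM, on linear axes from 0, in the 12 libraries grouped by siRNA and treatment; points are libraries, and the bars beside them are the mean and SD of 3. Ctnnb1 lies between 326 and 342 CPM with Ctnnb1 siRNA and dDAVP and between 776 and 811 CPM with control siRNA and dDAVP, and Aqp2 is near 0 in every vehicle library.

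Beyond the target, few genes passed the test and most of the changes were small. At an adjusted p under 0.05 (edgeR), 44 genes changed with Ctnnb1 siRNA in dDAVP, which is 0.267% of those tested: 20 rose (0.121%) and 24 fell (0.145%), Ctnnb1 among the latter. The median change was 1.33-fold for the genes that rose and 1.49-fold for those that fell, and 30 of the 44 changed by less than 1.5-fold. Changes of 2-fold or more were fitted for 6 genes: Ctnnb1, Rnf43, Fosb, the small nucleolar RNA Snord14d and the low-count genes Gng13 and Stra6, of which Stra6 was tested only because of its reads in the control-siRNA dDAVP group. In all 44 the 3 values of 1 group lay entirely above the 3 values of the other, a separation that the test itself favours, while 7.24% of all tested genes were separated in this way upward and 6.01% downward.

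**Figure D2:**
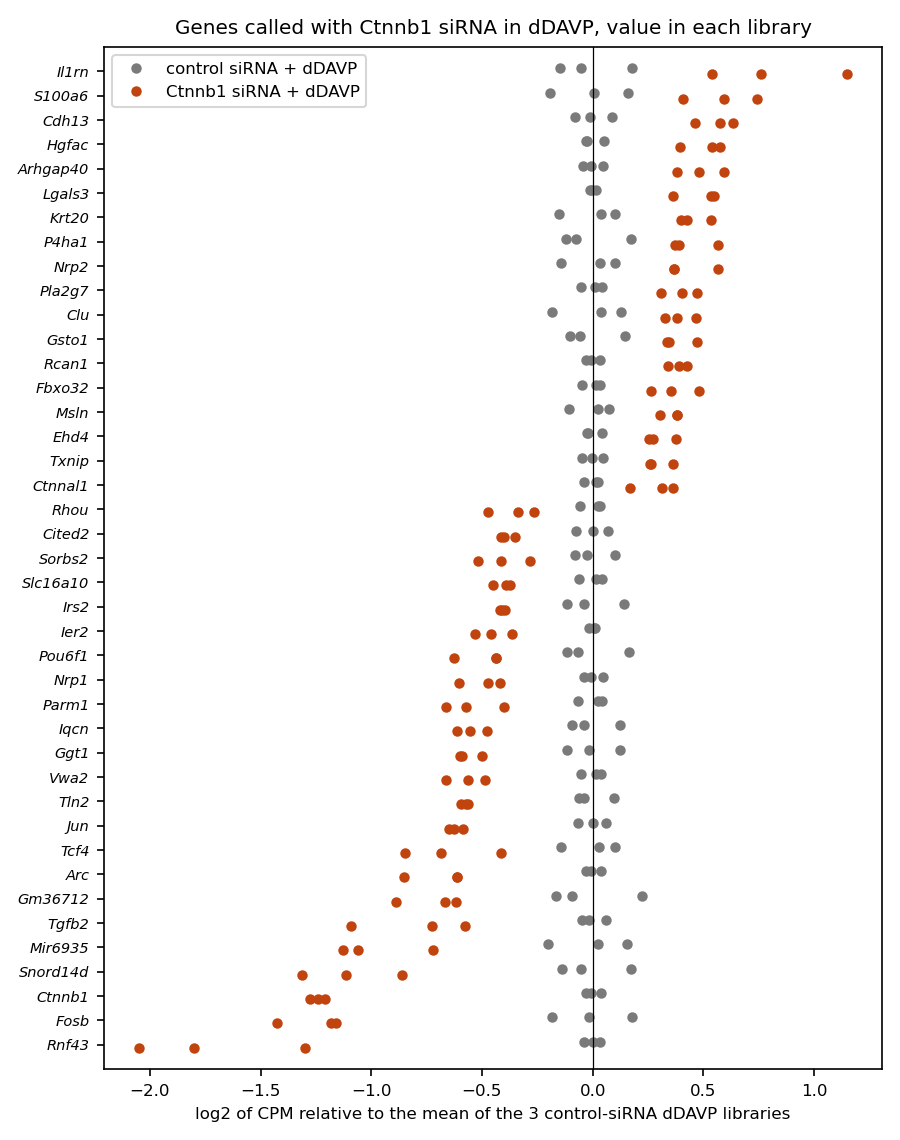
Level of the called genes in each of the 6 dDAVP libraries, as log2 of its CPM relative to the mean of the 3 control-siRNA libraries (grey, control siRNA; orange, Ctnnb1 siRNA). Gng13 and Stra6 are left out because 1 group had no reads, and 1 other called gene is not shown. Grey and orange points do not overlap for any gene shown, and the orange points of Rnf43 spread most among the genes that fell.

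The number of genes that passed depended strongly on single libraries. Without Ctnnb1 siRNA dDAVP replicate 3 it was 216, with 43 of the 44 among them. Without control siRNA dDAVP replicate 1 it was 5, without replicate 2 it was 74 and without replicate 3 it was 8, while leaving out Ctnnb1 siRNA dDAVP replicate 1 or 2 gave 19 and 24. A fit on the 6 dDAVP libraries alone, which takes no estimate of spread from the vehicle libraries, called 8, and these were 8 of the 44. The SD of log2 differences between libraries of a group reached 0.327 with dDAVP and 0.271 with vehicle. In vehicle the matching 6-library fit called more genes than the main analysis, not fewer. Why the 2 treatments differed in this was not tested. DESeq2 called 259, with 42 of the 44 among them. Ctnnb1, Vwa2, Arc, Jun and Tln2 passed in all 15 alternatives, and each of the 44 kept its direction in every alternative that fitted it.

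**Figure D3:**
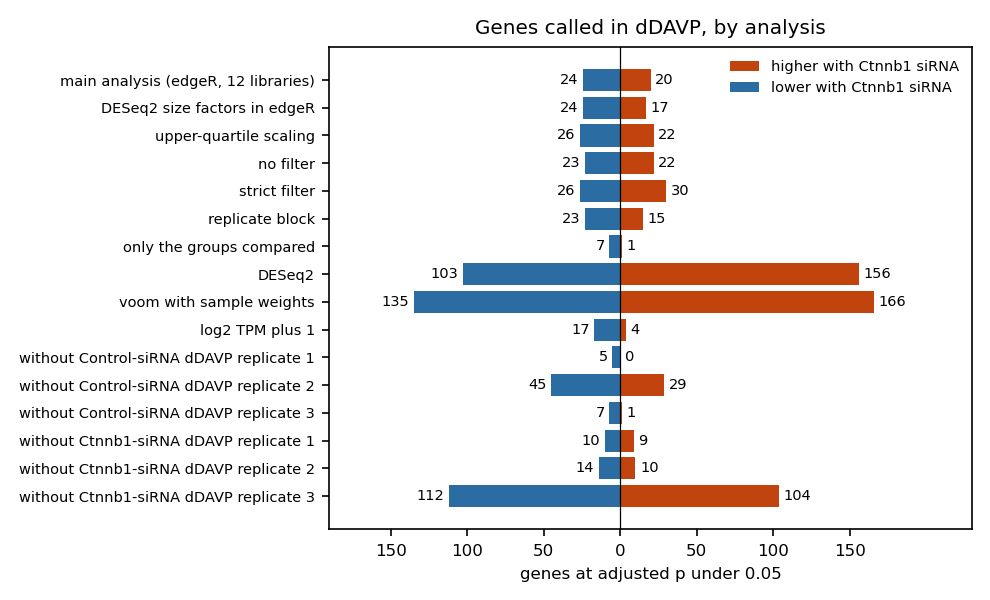
Number of genes at an adjusted p under 0.05 that were higher (orange, right of 0) or lower (blue, left of 0) with Ctnnb1 siRNA in dDAVP, in the main analysis and in 15 alternatives. The main analysis called 20 and 24 genes, the 6-library fit 1 and 7, and the fit without Ctnnb1 siRNA dDAVP replicate 3 called 104 and 112.

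Among Wnt ligands, receptors and their regulators the gene that fell was Rnf43, a membrane ubiquitin ligase that removes Frizzled receptors from the cell surface and is itself a known target of Wnt signalling. Rnf43 (chr11:87663087-87735539) was at 1.78, 1.87 and 1.83 CPM with control siRNA and at 0.744, 0.526 and 0.442 CPM with Ctnnb1 siRNA, a change of -1.68 (SE 0.31, adjusted p = 0.0296, edgeR), or 3.2-fold. Those levels rest on 70, 74 and 87 reads against 34, 23 and 21, and the ratio of the summed reads, scaled to library size, was 0.312 (95% interval for counting error alone 0.238 to 0.404). The 2 groups did not overlap, and the call was kept in 8 of the 15 alternatives. With vehicle the change was -1.78 (SE 0.30, adjusted p = 0.0136, edgeR). Znrf3, the related ligase, was at 23.4, 20.2 and 22.1 CPM and 15.8, 14.5 and 22.1 CPM, so its highest Ctnnb1-siRNA value, in replicate 3, lay within the control range (change -0.32, adjusted p = 0.323, edgeR). Lgr4, the R-spondin receptor that acts on both ligases, stood at 269, 262 and 277 CPM against 237, 229 and 234 CPM. Its groups did not overlap, but the change of -0.21 did not pass (adjusted p = 0.0528, edgeR).

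Few other members of the pathway passed the test. Of 25 tested Wnt ligands, receptors and their regulators, Rnf43 alone was called, and 20 had a negative fitted change. Of all tested genes, 0.145% were called lower and 50.4% had a positive fitted change. The median change of the list was -0.07 (-0.13 without Ctnnb1 siRNA dDAVP replicate 1), against 0.00 for all tested genes. With vehicle the list median was -0.08. Of 20 tested beta-catenin partners and destruction complex genes, none was called and 17 had a negative fitted change, with a median of -0.13. With vehicle the median of the same list was -0.02. Within that list Bcl9l, a co-activator that binds beta-catenin, read 36.6, 23.2 and 30.3 CPM and 23.2, 21.8 and 21.9 CPM (change -0.43, adjusted p = 0.277, edgeR), and its control libraries were the more scattered. The kinase Csnk1a1, which primes beta-catenin for destruction, read 304, 309 and 295 CPM and 279, 267 and 289 CPM (change -0.12, adjusted p = 0.3, edgeR). Of 25 tested genes listed as Wnt and beta-catenin targets, Rnf43 and Jun fell, none rose, and 11 had a positive fitted change, with a median of -0.13. That median moved to -0.04 without control siRNA dDAVP replicate 1 and to -0.09, -0.07 and -0.08 without Ctnnb1 siRNA dDAVP replicates 1, 2 and 3. With vehicle 2 genes of the list were called higher and 2 lower, and the list median was -0.03. In dDAVP, groups were separated upward for 4 of the 25 and downward for 3, where 7.24% and 6.01% of all tested genes were. Id2, a transcriptional inhibitor in that list, had the opposite sign to Rnf43 and Jun at 73.8, 83.4 and 77.7 CPM and 92.2, 102 and 95.8 CPM (change 0.30, adjusted p = 0.054, edgeR), with groups that did not overlap.

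At the adherens junction, beta-catenin itself was the called member of 13 tested genes, and the median change of the list was -0.07. Leaving out 1 library moved that median between -0.11, without Ctnnb1 siRNA dDAVP replicate 3, and 0.00, without control siRNA dDAVP replicate 1, where 7 of the 13 changes were positive. It was -0.01 without control replicate 3 and -0.04 without either of Ctnnb1 siRNA replicates 1 and 2, so the list had no stable direction. Cdh3, P-cadherin, stood at 193, 195 and 201 CPM with control siRNA and 178, 170.2 and 155 CPM with Ctnnb1 siRNA, groups that did not overlap (change -0.22, adjusted p = 0.0914, edgeR). Its change with vehicle passed the test (-0.28, adjusted p = 0.0234, edgeR). Jup, plakoglobin, the catenin closest to beta-catenin, was at 213, 189.9 and 204 CPM and 189, 177 and 172 CPM, which was not higher with the knockdown (change -0.17, adjusted p = 0.284, edgeR). Cdh1, E-cadherin, and Ctnna1, alpha-catenin, had fitted changes of 0.01 and 0.08. Of 31 tested tight junction, polarity and desmosome genes none was called, with a median change of 0.03. In contrast to these, Cdh13 rose, and it encodes T-cadherin, a cadherin anchored by lipid that lacks the tail to which beta-catenin binds. Its levels were 9.45, 9.03 and 10.1 CPM and 13.1, 14.8 and 14.2 CPM (change 0.56, SE 0.0872, adjusted p = 0.0125, edgeR), without overlap. Ctnnal1, alpha-catulin, a relative of alpha-catenin, rose from 106, 111 and 111 CPM to 123, 140.3 and 136 CPM, a change of 0.28 (SE 0.0543, adjusted p = 0.0424, edgeR), among the smallest that passed.

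Arc, Jun, Fosb and Ier2 fell with Ctnnb1 siRNA. They are immediate early genes, which cells switch on within minutes of a stimulus through CREB, SRF and related factors. Arc (chr15:74669081-74672570), a regulator of the cytoskeleton and endocytosis at synapses, stood at 107, 112 and 109 CPM with control siRNA and at 71.5, 71.6 and 60.6 CPM with Ctnnb1 siRNA (change -0.69, SE 0.0728, adjusted p = 0.000518, edgeR). Jun (chr4:95049036-95052222), an AP-1 subunit, stood at 93.4, 97.2 and 89 CPM and 60.5, 62.1 and 59.4 CPM (change -0.62, SE 0.0687, adjusted p = 0.000738, edgeR). In both genes each group was tight and the gap between groups was wider than the range within either. Fosb, an AP-1 partner of Jun, was scarce, at 4.86, 4.25 and 3.79 CPM against 1.92, 1.6 and 1.9 CPM, and fell 2.37-fold (change -1.25, SE 0.22, adjusted p = 0.0224, edgeR). Ier2, a nuclear immediate early protein, read 105, 106 and 107 CPM and 82.2, 77 and 73.3 CPM (change -0.45, SE 0.0681, adjusted p = 0.0125, edgeR). Fos and Junb did not pass, although their groups did not overlap. Fos read 56.1, 57.3 and 50.1 CPM and 43.4, 39 and 45.8 CPM (change -0.35, adjusted p = 0.125, edgeR). Junb read 309.9, 322 and 308 CPM and 280.3, 287 and 229 CPM (change -0.24, adjusted p = 0.18, edgeR), with replicate 3 the lowest. Atf3, a stress-induced member of the same bZIP class, had a positive fitted change at 14, 12.8 and 10.5 CPM and 17.1, 14.4 and 22.1 CPM (0.53, adjusted p = 0.161, edgeR), and here replicate 3 was the highest.

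Several of these genes are textbook targets of cAMP and CREB, the pathway that dDAVP engages. Of 28 tested genes in that list, 5 fell (Jun, Arc, Fosb, Cited2 and Irs2) and none rose, where 0.145% and 0.121% of all tested genes did. A negative fitted change was found for 22 and a positive one for 6, where 50.4% of all tested genes had a positive one. The median was -0.17, against 0.00 for all tested genes. Like the other lists, this one was chosen with earlier results of these data known. Groups were separated downward for 12 of the 28 and upward for 2, where 6.01% and 7.24% of all tested genes were. With vehicle, 4 of the 28 were called lower and 1 higher, where 0.43% of all tested genes were called in either direction, and the median was -0.01. The list median in dDAVP ranged from -0.26 to -0.10 over the main analysis and 15 alternatives, the weaker end without control siRNA dDAVP replicate 1 and the stronger without Ctnnb1 siRNA dDAVP replicate 3. Cited2, which competes with other factors for the co-activators CBP and p300, stood at 56.7, 54.1 and 51.1 CPM and 42.4, 40.6 and 40.9 CPM (change -0.39, SE 0.059, adjusted p = 0.0125, edgeR). Irs2, the adaptor that couples insulin and IGF receptors to PI3-kinase, stood at 66, 55.3 and 58.3 CPM and 45.5, 44.8 and 45.1 CPM (change -0.41, SE 0.0652, adjusted p = 0.0125, edgeR), with 3 nearly equal values in the Ctnnb1-siRNA group. An overlapping transcript, 9530052E02Rik, lies at Irs2, and whether reads were counted by strand is not given in the sources used here. Among the 5 called genes of the list, Irs2 alone was called higher with dDAVP in control-siRNA cells (0.42, adjusted p = 0.0017, edgeR). Jun was called lower there (-0.31, adjusted p = 0.0189, edgeR). Fosb, Cited2 and Arc showed no called response to dDAVP (0.51, 0.15 and 0.02, adjusted p = 0.271, 0.236 and 0.947, edgeR). That contrast uses the control-siRNA dDAVP libraries again.

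Vwa2, Tln2, Sorbs2 and Rhou, genes of matrix adhesion and the actin cytoskeleton, also fell. Vwa2 encodes a secreted protein of basement membranes with von Willebrand factor A domains, and it read 88.1, 82.7 and 86.6 CPM with control siRNA and 61.2, 58.1 and 54.2 CPM with Ctnnb1 siRNA (change -0.57, SE 0.0555, adjusted p = 0.000269, edgeR). Tln2, talin 2, which ties integrins to actin, read 82.7, 75.3 and 74.1 CPM and 52.1, 52.3 and 51.2 CPM (change -0.58, SE 0.0676, adjusted p = 0.0012, edgeR). Both were separated by more than the range within either group. Sorbs2, an adaptor at actin stress fibres and junctions, was at 142, 125 and 129.9 CPM and 99.2, 92.3 and 109 CPM (change -0.40, adjusted p = 0.0125, edgeR). Rhou, an atypical small GTPase described as induced by Wnt, was at 59.8, 56.5 and 60.2 CPM and 46.6, 49 and 42.4 CPM (change -0.36, adjusted p = 0.0137, edgeR), the smallest change among the genes that fell. Arhgap40, a GTPase-activating protein, moved the other way, from 7.05, 7.23 and 7.52 CPM to 10.1, 11 and 9.48 CPM (change 0.49, adjusted p = 0.0393, edgeR). Of 27 tested basement membrane and integrin genes none was called, and their median change was 0.00. Among them Lamb3, a laminin chain, and Col4a2, a type IV collagen chain, had the smallest p-values. Lamb3 had a change of 0.22 (adjusted p = 0.0681, edgeR) and Col4a2 one of -0.37 (adjusted p = 0.144, edgeR).

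The 2 neuropilins, co-receptors for semaphorins and VEGF, moved in opposite directions. Nrp1 fell from 45.8, 43.3 and 44.2 CPM to 29.3, 32 and 33.2 CPM (change -0.50, SE 0.0744, adjusted p = 0.0125, edgeR). Nrp2 rose from 54.6, 48.4 and 57.4 CPM to 69.1, 69.1 and 79.1 CPM (change 0.44, SE 0.0761, adjusted p = 0.0198, edgeR). Neither pair of groups overlapped, and both genes passed with vehicle in the same direction (-0.62, adjusted p = 0.001, and 0.69, adjusted p = 0.000473, edgeR). Among other signalling genes, Tgfb2, a TGF-beta ligand, fell from 4.94, 5.21 and 4.82 CPM to 3.35, 3.02 and 2.34 CPM (change -0.78, SE 0.15, adjusted p = 0.0381, edgeR). Tgfb3, a second ligand of that family, was at 12.6, 13 and 12.9 CPM and 10.7, 9.07 and 7.9 CPM and did not pass (change -0.47, adjusted p = 0.0962, edgeR). Of 25 tested TGF-beta, BMP and Id genes Tgfb2 was the called one, 21 had a negative fitted change, and the median was -0.07. Among 23 tested YAP and TEAD target genes Tgfb2 was again the called one, with a median of -0.09 (-0.04 without control siRNA dDAVP replicate 1 and -0.05 without Ctnnb1 siRNA dDAVP replicate 2), and Ccn1, a matricellular protein, was at 238, 273 and 221 CPM and 189.6, 191 and 195 CPM without passing (change -0.35, adjusted p = 0.0725, edgeR). Il1rn, the antagonist of the interleukin-1 receptor, had the largest rise among called genes with a mean of at least 1 CPM. It rose from 6.85, 5.46 and 5.83 CPM to 8.79, 10.2 and 13.4 CPM (change 0.84, SE 0.16, adjusted p = 0.0432, edgeR). Its Ctnnb1-siRNA values were spread, with replicate 3 the highest.

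Transporters, enzymes and transcription factors completed the genes that fell. Slc16a10, a carrier of aromatic amino acids, stood at 55.9, 53 and 57 CPM and 42.1, 40.4 and 42.7 CPM (change -0.41, adjusted p = 0.0066, edgeR). Ggt1, the ectoenzyme that breaks down glutathione and a marker of proximal tubule in the intact kidney, stood at 16.3, 18 and 15.2 CPM and 11.7, 10.9 and 11 CPM (change -0.56, adjusted p = 0.0125, edgeR). Proximal tubule markers in these cells summed to 89.0 to 97.5 CPM with control siRNA and 82.6 to 87.4 CPM with Ctnnb1 siRNA, most of it Lrp2, and their part in the change of Ggt1 was not tested. Tcf4 here is the basic helix-loop-helix E-protein gene, not Tcf7l2, the beta-catenin partner whose protein is also called TCF4. It stood at 69.1, 61.4 and 72.5 CPM and 42.1, 37.6 and 50.8 CPM (change -0.64, adjusted p = 0.0125, edgeR), with replicate 3 the highest of the Ctnnb1-siRNA group. Tcf7l2 had a fitted change of -0.20 (adjusted p = 0.74, edgeR). The POU-domain factor Pou6f1 changed by -0.50, the membrane mucin Parm1 by -0.54 and Iqcn, which has calmodulin-binding motifs, by -0.55, with adjusted p-values of 0.0125, 0.0187 and 0.0147 in edgeR. Mir6935, Snord14d and Gm36712 also passed, and they lie within or across Actg1, Hspa8 and Son. Counts of such short or overlapping features can hold reads of the host gene, so their changes of -0.96, -1.08 and -0.72 are uncertain. The host Hspa8 had a change of 0.18 in the opposite direction (adjusted p = 0.198, edgeR).

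The remaining genes that rose encode secreted and membrane proteins, metabolic enzymes and growth or stress regulators. Pla2g7, the secreted enzyme that inactivates platelet-activating factor, stood at 90.0, 94.1 and 96 CPM with control siRNA and 116, 129 and 124 CPM with Ctnnb1 siRNA (change 0.40, SE 0.0557, adjusted p = 0.0081, edgeR). Rcan1, an inhibitor of the phosphatase calcineurin, stood at 30.1, 31.5 and 30.6 CPM and 38.9, 40.3 and 41.2 CPM (change 0.39, SE 0.0566, adjusted p = 0.0117, edgeR). For both genes the lowest Ctnnb1-siRNA value lay well clear of the highest control value. Hgfac, the protease that activates hepatocyte growth factor, rose from 35.5, 37.4 and 35.4 CPM to 52.4, 53.8 and 47.5 CPM (change 0.51, adjusted p = 0.0125, edgeR). Among surface and extracellular proteins, Lgals3, the lectin galectin-3, rose from 73.1, 71.9 and 72.2 CPM to 93.2, 105 and 106 CPM (change 0.48, adjusted p = 0.0125, edgeR). Msln, mesothelin, changed by 0.35, and Clu, the secreted chaperone clusterin, by 0.39 (adjusted p = 0.0125 and 0.0432, edgeR). S100a6, a small calcium-binding protein, read 282, 359.9 and 324 CPM and 486, 538 and 428 CPM, groups that were both spread but did not overlap (change 0.59, SE 0.0971, adjusted p = 0.0187, edgeR).

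P4ha1, which hydroxylates proline in collagen and is induced by hypoxia, rose from 103, 126 and 106 CPM to 146, 144 and 165 CPM (change 0.45, SE 0.0717, adjusted p = 0.0125, edgeR). Gsto1, an omega-class glutathione transferase, changed by 0.39, the keratin Krt20 by 0.45 and Ehd4, an ATPase of endocytic recycling, by 0.30 (adjusted p = 0.0151, 0.0125 and 0.0153, edgeR). Fbxo32, the ubiquitin ligase atrogin-1, and Txnip, the thioredoxin-interacting protein that restrains glucose uptake, passed by the smallest margin. Fbxo32 read 13.8, 13.1 and 13.6 CPM and 17.3, 16.2 and 18.8 CPM (change 0.37, adjusted p = 0.0494, edgeR) and was called in 4 of the 15 alternatives. Txnip read 528, 565 and 546 CPM and 654, 656 and 702 CPM (change 0.30, adjusted p = 0.0494, edgeR) and was called in 7. Clu and Arhgap40 were also called in 7 of the 15, and Il1rn and Tgfb2 in 8.

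Promoter sequences of the called genes were searched for the core sites of the factors named above. The 250 bases before each RefSeq transcript start (GRCm38.p6) were read for 17 of the 23 genes that fell other than Ctnnb1, with 26 promoters, and for 15 of the 20 that rose, with 19 promoters. Each motif was searched on both strands, N standing for any base. The TCF/LEF core CTTTGA was present in 4 of the 26 promoters (Ggt1, Gm36712 and Stra6) and 1 of the 19 (Nrp2), against 10.6% of the 14844 promoters of tested genes. The AP-1 motif TGANTCA was present in none of the 26 and 3 of the 19 (Arhgap40, Il1rn and Rcan1), against 4.89%. The CRE-type motif TGACNTCA, whose letters were chosen with the Jun promoter in view, was present in 2 of the 26 (Ggt1 and Jun) and 1 of the 19 (Rcan1), against 6.10%. The CArG box of SRF was present in none of the 26 and 1 of the 19 (Gsto1), against 1.23%. No match of the AP-1 motif can lie inside a match of the CRE-type motif. In Ggt1, Rcan1 and Stra6 the matches lie before transcript starts inside the gene, not before its first start. The stretches below are the 60 bases around such matches in named genes, on the strand of the gene, with the motif in capitals; they show where the letters lie and are not evidence that a factor binds there.
Jun CRE-type match, chr4:95052234-95052293, minus strand: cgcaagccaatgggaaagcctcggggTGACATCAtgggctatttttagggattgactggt
Ggt1 CRE-type match, chr10:75571475-75571534, plus strand: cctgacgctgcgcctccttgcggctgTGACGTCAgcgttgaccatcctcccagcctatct
Rcan1 CRE-type match, chr16:92400220-92400279, minus strand: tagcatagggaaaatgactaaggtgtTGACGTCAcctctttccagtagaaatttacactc
Rcan1 AP-1 match, chr16:92400156-92400215, minus strand: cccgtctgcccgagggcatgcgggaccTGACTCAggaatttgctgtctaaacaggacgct
Il1rn AP-1 match, chr2:24336692-24336751, plus strand: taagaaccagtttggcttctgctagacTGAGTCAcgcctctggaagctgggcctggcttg
Arhgap40 AP-1 match, chr2:158512650-158512709, plus strand: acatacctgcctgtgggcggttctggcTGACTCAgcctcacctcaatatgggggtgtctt
Ggt1 TCF/LEF core match, chr10:75563882-75563941, plus strand: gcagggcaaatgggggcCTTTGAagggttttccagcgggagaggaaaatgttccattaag
Nrp2 TCF/LEF core match, chr1:62703144-62703203, plus strand: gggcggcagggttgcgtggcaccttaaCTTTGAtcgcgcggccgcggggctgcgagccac

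The CRE-type match ends 37 bases before the start of Jun, 51 bases before an internal start of Ggt1 and 167 bases before an internal start of Rcan1.

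Gng13 and Stra6 rest on few reads. Gng13, a G protein gamma subunit, had 0 reads in each control-siRNA dDAVP library and 9 in each Ctnnb1-siRNA dDAVP library. Against a limit of 3 reads over the control group its level was at least 8.30-fold higher. The vehicle libraries held 34 reads with control siRNA and 36 with Ctnnb1 siRNA, so the control-siRNA dDAVP group was the one without reads. Stra6, the cell surface receptor for retinol-binding protein, had 19, 11 and 28 reads in the control-siRNA dDAVP libraries and 0 in each Ctnnb1-siRNA dDAVP library, at least 21.0-fold lower against the same limit. Its vehicle libraries held 21 and 6 reads, so it passed the read filter through the control-siRNA dDAVP group alone, the group in which it was high, and its call adds no support; without the filter it was not called (adjusted p = 0.0615, edgeR). Gng13 overlaps Chtf18 and Stra6 overlaps Ccdc33 in the annotation. Gng13 was called in 6 of the 13 alternatives that tested it and Stra6 in 5 of 14, both with the same sign throughout. Cacna2d4, a calcium channel subunit, had the same pattern as Gng13, with 0 reads against 36 in sum, and just missed the threshold (adjusted p = 0.0501, edgeR).

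Aqp2, the gene through which vasopressin sets water permeability, was lower in all 3 Ctnnb1-siRNA dDAVP libraries but did not pass the test. Its levels were 7.69, 4.78 and 5.88 CPM with control siRNA and 4.09, 3.91 and 3.26 CPM with Ctnnb1 siRNA, from 302, 189 and 279 reads against 187, 171 and 155. The groups did not overlap, the control group was the more scattered, and its replicate 1 was the highest. The fitted change was -0.70 (SE 0.25, 95% interval -1.24 to -0.17, adjusted p = 0.287, edgeR). Its unadjusted p was under 0.05, as it was for 11.7% of all tested genes. An exact two-sided permutation test gave p = 0.1, the smallest possible. The ratio of summed reads, scaled to library size, was 0.614 (95% interval for counting error alone 0.549 to 0.688). Over 15 alternatives the change ranged from -0.85 to -0.51 and passed in none, and it was smallest without control siRNA dDAVP replicate 1. In vehicle Aqp2 had 2 reads in the control-siRNA group and 8 in the Ctnnb1-siRNA group, so no siRNA effect on it could be measured there. In bulk RNA, fewer cells with Aqp2 transcript and less transcript per cell cannot be told apart. Gm34765 spans the Aqp2, Aqp5 and Aqp6 genes in the annotation, and reads shared between overlapping genes are uncertain.

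The signalling chain upstream of Aqp2 showed no called change. Of 25 tested genes for the V2 receptor, adenylyl cyclases, phosphodiesterases and protein kinase A, none passed, 13 had a positive fitted change, and the median was 0.00. The phosphodiesterase Pde7a stood at 232, 229 and 229 CPM and 195, 196 and 213 CPM (change -0.19, adjusted p = 0.113, edgeR), and the regulatory subunit Prkar2b at 181, 181 and 184 CPM and 203, 192 and 235 CPM (change 0.21, adjusted p = 0.241, edgeR). In both the groups did not overlap. Avpr2, the V2 receptor, had a fitted change of 0.14 (adjusted p = 0.57, edgeR). Of 27 tested transcription factors proposed to act on Aqp2, Jun fell and none rose, with a median of -0.02. None of 31 tested genes of Aqp2 trafficking and cortical actin, and none of 25 tested renal ion and water transport genes, was called, with medians of 0.04 and 0.00. Fxyd4, a regulator of the sodium pump, stood at 0.662, 0.455 and 0.379 CPM and 1.03, 0.983 and 1.28 CPM without overlap, yet the change of 1.15 did not pass (adjusted p = 0.143, edgeR). Aqp6 was at 4.91, 2.78 and 3.14 CPM and 2.1, 2.42 and 2.74 CPM (change -0.57, adjusted p = 0.364, edgeR). Among principal cell markers Ptgs1, a cyclooxygenase, read 136, 126 and 135 CPM and 146, 152 and 149.6 CPM (change 0.17, adjusted p = 0.162, edgeR).

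The same siRNA contrast in vehicle gave most of the called genes the same sign. Its 6 libraries set no level in the dDAVP contrast, but they shared the read filter and the estimate of spread that chose the 44 genes. Genes with a narrow spread in vehicle were therefore favoured. Passing or separation in vehicle is thus not independent of that choice. Of the 44 genes, 43 had the same sign with vehicle, all 24 that fell and 19 of the 20 that rose, where 56.6% of all tested genes did. The exception was Fbxo32, at -0.03 with vehicle. With vehicle 71 genes passed (0.43% of those tested), and 26 genes passed in both treatments, which is 59.1% of the 44 and 36.6% of the 71. All 26 changed in the same direction in both, 11 up and 15 down. The median size of change of the 44 genes was 0.50 with dDAVP, the values that chose them, and 0.47 in the same direction with vehicle. In 39 of the 44 the vehicle groups were also separated in the direction seen with dDAVP, where 8.95% of all tested genes were separated upward and 9.26% downward.

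**Figure D4:**
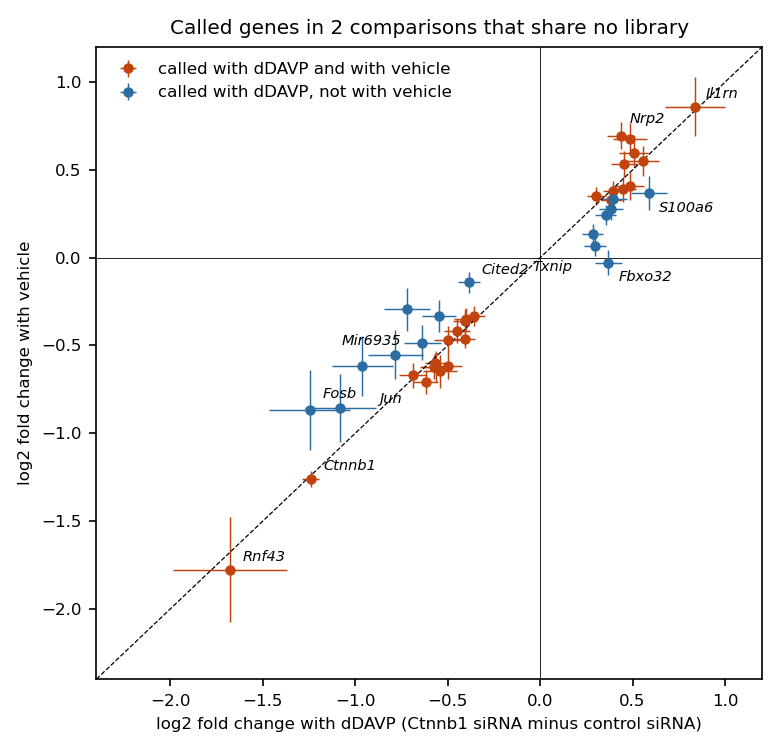
Fitted log2 change with Ctnnb1 siRNA for the called genes except Gng13, Stra6 and 1 other, with dDAVP (horizontal axis) and with vehicle (vertical axis); bars are standard errors, and the dashed line marks equal changes. Orange points passed in both treatments and blue points passed with dDAVP alone. All genes that fell with dDAVP lie below 0 with vehicle, and Fbxo32, at -0.03 with vehicle, is the point that rose with dDAVP and lies below 0.

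No gene passed the test of a difference between the treatments in edgeR. The interaction of siRNA and dDAVP called 0 genes in edgeR and 1 in DESeq2 (Nr4a1), and 829 genes (5.02%) had an unadjusted p under 0.05 in edgeR. Among the 44 called genes 8 were under that level, among them Cited2, Nrp2, Fbxo32, Txnip, Gm36712, Gng13 and Stra6. Nr4a1, an orphan nuclear receptor induced by cAMP, had the smallest interaction p-value. It changed by -0.10 with dDAVP, at 35.1, 33.7 and 33.2 CPM against 30.4, 31.6 and 32.9 CPM, and by 0.45 with vehicle (interaction -0.55, adjusted p = 0.865, edgeR). Rnu5g was next among negative differences (-1.83, adjusted p = 0.918, edgeR). Gng13, Cacna2d4 and 1110038B12Rik led the positive ones (adjusted p = 0.918, 0.918 and 0.918, edgeR), and Gng13 and Cacna2d4 rest on few reads. Cited2 changed by -0.39 with dDAVP and -0.14 with vehicle, and the difference of -0.25 did not pass (adjusted p = 0.918, edgeR). Nrp2 changed by 0.44 and 0.69 (difference -0.26, adjusted p = 0.918, edgeR), and Fbxo32 by 0.37 and -0.03 (difference 0.40, adjusted p = 0.918, edgeR).

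Some genes that changed with the siRNA also responded to dDAVP. The contrasts of dDAVP with vehicle use the dDAVP libraries of the siRNA contrast again, so the values are set side by side without a comparison. Irs2 changed with dDAVP by 0.42 in control-siRNA cells (adjusted p = 0.0017, edgeR) and by 0.37 in Ctnnb1-siRNA cells (adjusted p = 0.0049, edgeR), while the siRNA lowered it. Nrp1 was lower with dDAVP, by -0.56 in control-siRNA cells (adjusted p = 0.000324, edgeR) and -0.44 in Ctnnb1-siRNA cells (adjusted p = 0.0031, edgeR), and lower with the siRNA. Lgals3 was higher with dDAVP, by 0.44 and 0.52 (adjusted p = 0.005 and 0.0012, edgeR), and higher with the siRNA. Clu likewise changed with dDAVP by 0.33 and 0.39 (adjusted p = 0.0261 and 0.0099, edgeR). For Jun the values were -0.31 and -0.22 (adjusted p = 0.0189 and 0.117, edgeR), and for Arc 0.02 and 0.00 (adjusted p = 0.947 and 0.996, edgeR), so Arc differed with the siRNA and showed no called response to dDAVP.

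In several larger gene groups nearly all fitted changes had the same sign, although at most 1 member was called. Of 40 tested cytosolic ribosomal protein genes none was called, all 40 had a positive fitted change, as 50.4% of all tested genes did, and 21 had groups separated upward, against 7.24% of all tested genes. The median was 0.17, against 0.00 for all tested genes and 0.03 for the same list with vehicle. The list summed to 24872 to 27669 CPM with control siRNA and 27884 to 30880 CPM with Ctnnb1 siRNA. All 40 genes were measured in the same 6 libraries, so their signs are not 40 independent results. Rpsa stood at 575, 657 and 598 CPM and 687, 800.1 and 708 CPM (change 0.26, adjusted p = 0.161, edgeR), and Rpl13 changed by 0.18 (adjusted p = 0.161, edgeR). These genes have many near-identical pseudogene copies, and how shared reads were assigned is not given in the sources used here. The median of the list stayed between 0.09 and 0.22 over the alternatives, lowest with log2 TPM, where the median of all genes was itself -0.07.

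Glycolysis and hypoxia genes also had mostly small positive fitted changes. Of 31 tested, P4ha1 rose and none fell, 29 had a positive fitted change, 15 were separated upward and none downward (7.24% and 6.01% of all tested genes), and the median was 0.17 with either treatment. Hk2, a hexokinase, stood at 61.9, 63 and 63.3 CPM and 79.4, 74.8 and 101 CPM and did not pass (change 0.44, adjusted p = 0.0528, edgeR), although it passed with vehicle (0.57, adjusted p = 0.0087, edgeR). Bnip3, a mitophagy receptor induced by hypoxia, stood at 28.8, 36 and 33.9 CPM and 44.5, 39.5 and 43.1 CPM (change 0.36, adjusted p = 0.0758, edgeR). With vehicle 4 genes of the list were called higher. The list median ranged from 0.08 to 0.20 over the alternatives.

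**Figure D5:**
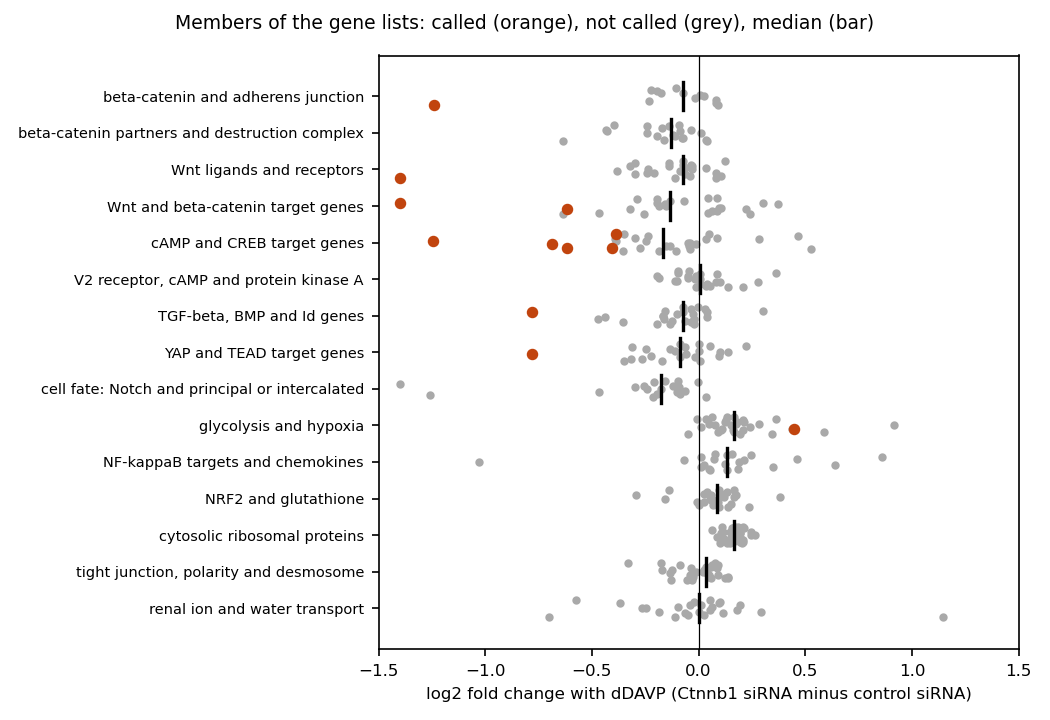
Fitted log2 change with Ctnnb1 siRNA in dDAVP for the tested members of 15 gene lists (orange, called; grey, not called; black bar, median of the list). Values beyond 1.4 in size are drawn at that limit (3 points, Rnf43 in 2 lists and a Notch list gene). The medians of the ribosomal protein and glycolysis lists lie at 0.17, and those of the cAMP and Notch lists at -0.17 and -0.18.

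No member of the lists for NF-kappaB targets and for NRF2 and glutathione was called. Of 21 tested NF-kappaB targets and chemokines, 19 had a positive fitted change, where 50.4% of all tested genes did, and the median was 0.13. Groups were separated upward for 8 and downward for 1, where 7.24% and 6.01% of all tested genes were. Cxcl1, a neutrophil chemokine, stood at 13.4, 13.4 and 11.4 CPM and 16.3, 18 and 18.1 CPM (change 0.46, adjusted p = 0.0703, edgeR), and Cxcl16 at 33, 38.4 and 30.9 CPM and 42.2, 41.6 and 46.1 CPM (change 0.35, adjusted p = 0.0962, edgeR). Both were without overlap. The summed level of leukocyte markers was also higher: 3 of the 12 had enough reads to be tested (Csf1r, Cd14 and Cd68), the list summed to 60.8 to 67.4 CPM with control siRNA and 68.0 to 82.9 CPM with Ctnnb1 siRNA, and Itgam and Coro1a were at 0 reads. Their part in the result was not tested. Of 27 tested NRF2 and glutathione genes 22 had a positive fitted change, with a median of 0.09, and 4 were separated upward and 2 downward. Gstm1, a glutathione transferase, stood at 250.3, 227 and 212 CPM and 278, 292 and 327 CPM (change 0.38, adjusted p = 0.0635, edgeR). Of 35 tested interferon response genes none was called, and the median was 0.05 with dDAVP and -0.20 with vehicle.

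Notch and cell fate genes had mostly negative fitted changes, again without a call. Of 19 tested, 18 had a negative fitted change, 6 were separated downward and none upward (6.01% and 7.24% of all tested genes), and the median was -0.18 (range -0.22 to -0.10 over the alternatives, the weaker end without control siRNA dDAVP replicate 1), against -0.06 with vehicle. Hes1, the Notch effector, stood at 54.9, 62.3 and 62.5 CPM and 51.7, 53 and 47.3 CPM (change -0.24, adjusted p = 0.176, edgeR). Sox4, a progenitor factor of the SOX family, stood at 430.0, 453 and 414 CPM and 407, 342 and 337 CPM (change -0.26, adjusted p = 0.179, edgeR). Of 14 tested genes in the list for epithelial to mesenchymal transition, Tgfb2 fell and none rose. A positive fitted change was found for 4, where 50.4% of all tested genes had one. The list median was -0.19 (range -0.33 to -0.07 over the alternatives), against -0.03 with vehicle. Among the 4 were Spp1, osteopontin, and S100a4, a calcium-binding protein of fibroblasts and migrating cells, whose changes did not pass. Spp1 stood at 34.8, 41.6 and 40.5 CPM and 56, 59.9 and 48.5 CPM (change 0.49, adjusted p = 0.09, edgeR), and it passed with vehicle (0.79, adjusted p = 0.0051, edgeR). S100a4 stood at 4.58, 6.07 and 4.46 CPM and 8.27, 8.96 and 6.85 CPM (change 0.67, adjusted p = 0.0758, edgeR). Of 26 tested MAPK feedback genes and EGF receptor ligands none was called, with Dusp4, a MAP kinase phosphatase, at 0.42 and Spry2, an inhibitor of receptor signalling, at -0.32 (adjusted p = 0.0914 and 0.125, edgeR). Proliferation lists, with 33 tested genes of G2 and mitosis and 32 of S phase, had no called member and medians of 0.05 each.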

How the data were processed

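Libraries were made from total RNA with the TruSeq Stranded Total RNA kit after ribosomal RNA depletion, per the labels' protocols. The submitters' processing notes name FastQC, Trimmomatic, HISAT2, StringTie and DESeq2 and the mouse builds GRCm38 and mm10, without versions. The authors deposited 1 table with raw read counts per gene for all 12 libraries, and with TPM values beside them; how counts were made from the alignments, and whether strand was used, is not given in the sources used here.

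The main test used the deposited counts of all 12 libraries, so that the 4 groups share 1 estimate of the spread: filterByExpr, TMM scaling and the robust quasi-likelihood test of edgeR 4.0.16 in R 4.3.3, with 1 coefficient per group. The contrast was Ctnnb1 siRNA minus control siRNA within dDAVP. A gene was called at a Benjamini-Hochberg adjusted p under 0.05 over 16508 genes, which held 99.968% of reads. The common coefficient of variation between replicates was 8.26%. The same contrast within vehicle and the interaction came from the same fit. CPM values are TMM-normalised. A limit of 3 reads over a group stands for 0 reads, and counting intervals are at 95% and cover counting error only. Other settings tried were DESeq2 1.42.0, edgeR rescaled by DESeq2 size factors or by upper quartiles, all genes unfiltered, a stricter filter (1 CPM in 3 libraries, mean count of 20), the replicate number as a block, the 6 dDAVP libraries alone, limma 3.58.1 with voom and sample weights, limma on log2(TPM + 1) from the deposited TPM, and leaving out single libraries. The scripts were tested on simulated data.

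The comparison, its genes and the gene lists were chosen with earlier results of these data known. Genes named are Ctnnb1 and Aqp2, the called genes, up to 4 called or 2 uncalled members of each list by smallest p, and the 3 genes with the smallest interaction p in each direction. Of these, 1 called gene, its list and 1 interaction gene are not reported here. Cdh1, Ctnna1, Avpr2 and Tcf7l2 were named for their role after their values were seen. Symbols are those of the deposited table; coordinates, overlaps and promoters come from RefSeq (GRCm38.p6).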

Additional observations from a re-analysis of the deposited data

How the results depend on the processing

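The number of genes called in dDAVP varied most: against 20 higher and 24 lower, the fit on the 6 dDAVP libraries alone called 1 and 7, DESeq2 156 and 103, voom with sample weights 166 and 135, and limma on log2 TPM 4 and 17 (19.0% higher, against 45.5%; the median of all genes was -0.07 there and within 0.01 of 0 in the other alternatives). Leaving out 1 library gave 0 to 104 higher and 5 to 112 lower. For control siRNA with dDAVP, dropping replicate 1 left 0 and 5, dropping replicate 2 left 29 and 45, and dropping replicate 3 left 1 and 7. For Ctnnb1 siRNA with dDAVP the counts were 9 and 10, 10 and 14, and 104 and 112 in the same order. The strict filter gave 30 higher and 26 lower; the other scalings and no filter stayed within 1.5 times. The cause of these differences was not tested. The vehicle count of 71 became 255 with the 6 vehicle libraries alone, 169 with DESeq2, 253 with voom, and 18 to 48 with 1 library left out (control siRNA vehicle replicates 1, 2 and 3 gave 48, 21 and 22, Ctnnb1 siRNA vehicle replicates 1, 2 and 3 gave 25, 37 and 18). DESeq2 called 1 gene (Nr4a1) for the interaction, where every other alternative called 0. Ctnnb1 kept its call (-1.32 to -1.22), and Aqp2 was called in none (-0.85 to -0.51).

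Across genes, deviations of same-numbered dDAVP libraries from their group means correlated at -0.14, 0.194 and -0.072. The vehicle values were -0.037, -0.147 and -0.074. Differently numbered dDAVP pairs ranged from -0.276 to 0.342. With 3 libraries per group these values cannot decide whether the numbers pair the samples. With the replicate number as a block, 15 genes were higher and 23 lower, 37 of them among the 44, the vehicle count was 53, the interaction count 0, Ctnnb1 -1.24 and Aqp2 -0.69. The list medians of 0.05 or less in size for tight junction, V2 receptor, Aqp2 trafficking, renal transport, basement membrane, interferon, G2 and S phase genes took both signs over the alternatives, between -0.14 (renal transport, without Ctnnb1 siRNA dDAVP replicate 3) and 0.09 (interferon, without Ctnnb1 siRNA dDAVP replicate 2). With log2 TPM the median of the NRF2 list was -0.0047 and that of the NF-kappaB list 0.05. Positive changes there numbered 12 of 27 and 13 of 21.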
